A study of Mus musculus with 16 samples.

Results

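The comparison set hearts from mice fed a high-fat, high-sucrose diet (HFHS) with ertugliflozin against hearts from mice fed a low-fat control diet (CD) without drug. These groups differ in both diet and drug, and they held 8 of the 16 libraries of the study, 4 each, taken by group label. All animals were male C57BL/6J mice that were 8 weeks old at the start and spent 4 months on their diet. HFHS ertugliflozin hearts came from mice that ate the HFHS diet with 0.5 mg of ertugliflozin mixed into each g. CD untreated hearts came from mice on the control diet alone. The remaining 8 libraries, HFHS untreated and CD ertugliflozin, complete the design of diet by drug and are used below to show on which side of it a gene moved. Left ventricles were frozen and sequenced in bulk as poly(A)-selected RNA, 1 library per numbered animal, and 4 animals of the 12 in each group were picked as representative. The p-values therefore measure the spread among picked animals. The count table held 53764 genes, of which 15841 passed a filter on low counts and were tested. Library totals were 16554399 to 21452212 counts in HFHS ertugliflozin hearts and 15897779 to 18701291 in CD untreated hearts.

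Ertugliflozin blocks SGLT2, a cotransporter that returns filtered glucose from the kidney tubule to the blood, so that glucose leaves with the urine. The heart burns mainly fatty acids and can also take glucose, lactate and ketone bodies. Fatty acids that enter the cardiac muscle cell activate nuclear receptors of the PPAR family, which pair with RXR and raise the genes for fatty acid uptake, storage and mitochondrial oxidation. The same receptors raise Pdk4, a kinase that shuts the entry of pyruvate into the citric acid cycle.

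Against CD untreated hearts, HFHS ertugliflozin hearts differed in 427 of the 15841 genes, 2.7% of those tested, by edgeR's quasi-likelihood test at a Benjamini-Hochberg adjusted p under 0.05. Of these, 306 were higher (1.93%) and 121 lower (0.764%). These shares are the background for every count of list members below. Most differences were small: the median log2 fold change was 0.35 among the higher and -0.37 among the lower genes. More than 2-fold differences were held by 20 of the higher and 13 of the lower genes. In 301 of the 306 and in 115 of the 121, no library of one group lay within the range of the other. The same held for 12.6% of all tested genes (7% higher, 5.64% lower), and a gene that passes the test nearly has to show it. Protein-coding genes made up 399 of the 427. The log2 fold change is given below as HFHS ertugliflozin over CD untreated with its SE, levels are CPM (the read count of a gene over its library's TMM-adjusted total), and each group has n = 4.

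HFHS ertugliflozin against HFHS untreated hearts gave 0 genes by edgeR, with 637 genes at an unadjusted p under 0.05 and a smallest adjusted p of 0.653; DESeq2 and limma-voom also gave 0. HFHS untreated against CD untreated hearts gave 327 genes (2.06%), and CD ertugliflozin against CD untreated hearts gave 3 (0.0189%). HFHS ertugliflozin against CD ertugliflozin hearts gave 584 (3.69%). These comparisons share libraries with the one described here, so their counts are not independent of it. Over all tested genes the median size of the log2 fold change was 0.10 between HFHS ertugliflozin and CD untreated hearts and 0.067 between HFHS ertugliflozin and HFHS untreated hearts.

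As whole profiles, HFHS ertugliflozin libraries lay on average 49.8 from CD untreated libraries in Euclidean distance over the log2 CPM of the tested genes. They lay 44.3 from HFHS untreated and 48.7 from CD ertugliflozin libraries. For scale, CD untreated libraries lay 52.7 from HFHS untreated and 49.2 from CD ertugliflozin libraries, a pair of groups with 3 called genes. Distances inside a group averaged 40.8 among HFHS ertugliflozin, 47.9 among HFHS untreated, 47.8 among CD ertugliflozin and 45.6 among CD untreated libraries. The mean distance between the groups thus exceeded the mean within them by 6.58 (exact one-sided permutation test over all 35 ways to assign the 8 libraries to groups of 4, p = 0.0286, the smallest it can give). Leaving out 1 HFHS ertugliflozin library gave differences of 5.26 to 6.4, each at an exact permutation p of 0.0571.

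**Figure D1:**
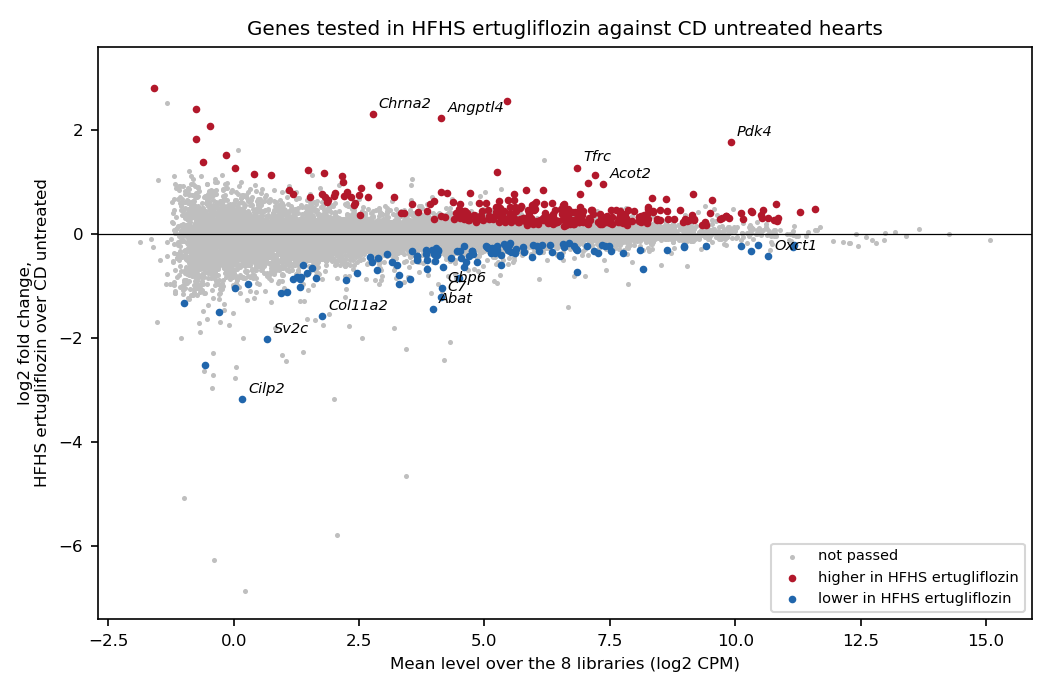
Each point is 1 of the 15841 tested genes, with the mean log2 CPM of the 8 libraries on the x axis and the log2 fold change of HFHS ertugliflozin over CD untreated hearts on the y axis. The 306 higher genes (red) and 121 lower genes (blue) passed an adjusted p of 0.05, and most lie within 1 log2 unit of 0.

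The libraries also differed in markers of tissue from outside the ventricle wall. Summed levels of 14 valve and cartilage-like markers were 38.8 to 95.3 CPM in HFHS ertugliflozin hearts, against 68.5 to 291 CPM in CD untreated hearts. Summed levels of 11 atrial markers were 244 to 272 CPM in HFHS ertugliflozin hearts, against 269 to 1292 CPM in CD untreated hearts. None of the 14 valve or 11 atrial markers was at 0 in all 8 libraries. With the valve and atrial scores as covariates 53 genes passed (44 higher, 9 lower), of which 51 were among the 427, and 426 of the 427 kept their sign. Atrial scores (mean log2 CPM of the tested markers, centred over the 16 libraries) did not overlap between the groups. They were -1.39 to -0.0297 in HFHS ertugliflozin hearts and 0.433 to 3.5 in CD untreated hearts. In this fit the atrial covariate and the group difference thus cannot be fully told apart. Without CD untreated replicates 2 and 3, the libraries with the highest valve sums (291 and 264 CPM), 102 genes passed. That fit kept CD untreated replicate 1, whose atrial sum was the highest (1292 CPM). It also held fewer control libraries, so tissue content and the smaller group cannot be told apart as sources of lost calls. Leaving out single libraries gave 216, 287, 247 and 268 genes without HFHS ertugliflozin replicates 1, 2, 3 and 4 in turn. It gave 314, 242, 246 and 463 genes without CD untreated replicates 1, 2, 3 and 4 in turn. All 427 genes kept their sign in each of these fits that left out libraries. They were called in the same libraries, so a kept sign nearly has to follow and gives no separate support. Of 91 passing genes followed one by one, 30 kept their call with the covariates and 39 without CD untreated replicates 2 and 3. Those named below that kept it under all 20 alternatives tried were Chrna2, Abat, Acot2, Hsdl2, Gpam, Fbxo21, Ephx2, Lix1l, Decr1, Ech1, Vwa8, Etfdh, Pex11a, Cd36, Plin2, Oxct1, Acat1, Bckdhb, Pfkfb2, Cpt1a, Fabp3-ps1, Tshz1, Dysf, Hsd17b11, Dbi and Cidea.

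Genes under PPAR control were higher in HFHS ertugliflozin hearts. All lists were chosen with earlier results of these data known, and some share members. Counts of their members are thus not independent of those results or of each other. Of 24 genes under PPAR control, all tested, 21 rose and 0 fell, with a median log2 fold change of 0.47, beside -0.0069 over all tested genes. Their summed score, the mean log2 CPM centred over the 16 libraries, was 0.329 to 0.389 in HFHS ertugliflozin hearts, against -0.502 to -0.24 in CD untreated hearts. Every HFHS ertugliflozin library was above every CD untreated library. So were the libraries of the other arms, at -0.0177 to 0.273 in HFHS untreated and -0.229 to -0.0568 in CD ertugliflozin hearts. The median log2 fold change of the list was 0.33 in HFHS untreated against CD untreated hearts. It was 0.16 in HFHS ertugliflozin against HFHS untreated hearts. Ucp3, a mitochondrial carrier, was at 1.44 ± 0.44 (edgeR adjusted p = 0.111), the peroxisomal enzyme Ehhadh at 0.17 ± 0.09 (edgeR adjusted p = 0.374) and the lipoprotein lipase Lpl at -0.23 ± 0.07 (edgeR adjusted p = 0.095), and none of the 3 passed. Ucp3 passed without CD untreated replicate 4. With the valve and atrial covariates 9 of the 24 rose at a median of 0.42. Without CD untreated replicates 2 and 3, 13 rose at a median of 0.42.

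Promoters of PPAR targets are shown for Plin2 and Cd36, a lipid droplet coat protein and the fatty acid transporter of the cell surface, because both rose and both hold a near match to the element that PPAR and RXR bind as a pair. That element is a direct repeat, AGGTCA followed after 1 base by AGGTCA, searched on both strands with up to 2 mismatches in the RefSeq window of 250 bases before to 50 after each start site (GRCm38.p6). It was found in 4 of the 19 promoters of the 18 PPAR target genes in that table (21.1%) and in 3.86% of all 32851 promoters. The share was also above that of all promoters in a list that did not rise, the interferon-inducible GTPases, where 2 of 11 promoters held it (18.2%). A match describes letters and not a bound site. Each sequence is 60 bases, read on the strand of the gene, with the matched bases in capitals.
Plin2 (chr4:86670240-86670299, - strand): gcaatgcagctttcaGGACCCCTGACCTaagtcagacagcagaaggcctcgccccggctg
Cd36 (chr5:17835917-17835976, - strand): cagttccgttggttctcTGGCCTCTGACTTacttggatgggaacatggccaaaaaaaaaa

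The match in Plin2 runs from position -225 to -213 and that in Cd36 from -63 to -51 relative to the start site, each with 2 mismatches and on the strand opposite to the gene. Cd36 was at 3542, 3585, 3829.9 and 3662 CPM in HFHS ertugliflozin hearts, against 2589.9, 2534, 2432 and 2887 CPM in CD untreated hearts. The groups did not overlap, and the log2 fold change was 0.49 ± 0.06 (edgeR adjusted p = 5.00e-05). Plin2 was at 109 ± 7.65 CPM in HFHS ertugliflozin hearts and 78.2 ± 2.46 CPM in CD untreated hearts, also without overlap, at 0.48 ± 0.06 (edgeR adjusted p = 5.19e-05).

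Pdk4, at chr6:5483351-5496309, had 1713, 2039, 1671 and 1758 CPM in HFHS ertugliflozin hearts, against 426, 553, 469.8 and 647 CPM in CD untreated hearts. All 4 HFHS ertugliflozin libraries were above all 4 CD untreated libraries. So were all HFHS untreated (1000 to 1864 CPM) and all CD ertugliflozin libraries (743 to 1543 CPM). The log2 fold change was 1.78 ± 0.24 (edgeR adjusted p = 0.00188). It was 1.78 (edgeR adjusted p = 0.0537) with the valve and atrial covariates and 1.74 (edgeR adjusted p = 0.0542) without CD untreated replicates 2 and 3. Angptl4, a secreted inhibitor of lipoprotein lipase, had 33.7, 48, 38.7 and 38.1 CPM in HFHS ertugliflozin hearts, against 6.98, 6.0, 5.93 and 14.7 CPM in CD untreated hearts. CD untreated replicate 4 stood above its group, and the log2 fold change was 2.24 ± 0.51 (edgeR adjusted p = 0.037). That call ended without HFHS ertugliflozin replicates 1, 2, 3 and 4 or without CD untreated replicates 1, 2 and 3 (each left out alone).

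Genes of mitochondrial fatty acid oxidation were higher in HFHS ertugliflozin hearts. Of 21 genes 17 rose and 0 fell, at a median of 0.36. The median was 0.21 in HFHS untreated against CD untreated hearts and 0.14 in HFHS ertugliflozin against HFHS untreated hearts. Activation and entry were higher through the acyl-CoA synthetase Acsl1 (0.31 ± 0.06), the carnitine palmitoyltransferases Cpt1a (0.60 ± 0.08), Cpt1b (0.38 ± 0.08) and Cpt2 (0.43 ± 0.07) and the carnitine carrier Slc25a20 (0.48 ± 0.07). The chain-shortening dehydrogenases Acadvl (0.32 ± 0.06), Acadl (0.36 ± 0.06), Acadm (0.31 ± 0.05) and Acads (0.36 ± 0.06) rose, as did both subunits of the trifunctional protein, Hadha (0.43 ± 0.06) and Hadhb (0.28 ± 0.05). Among the largest rises of the list were enzymes that prepare unsaturated fatty acids for oxidation. Decr1, which reduces their dienoyl-CoA intermediates, had 932, 936, 946 and 930.0 CPM in HFHS ertugliflozin hearts, against 658, 592, 542 and 566 CPM in CD untreated hearts. No library crossed into the other group's range, with a log2 fold change of 0.67 ± 0.07 (edgeR adjusted p = 1.36e-05). Ech1, a dienoyl-CoA isomerase, was at 0.58 ± 0.06 (edgeR adjusted p = 3.36e-05), and Etfdh, which passes the electrons to the respiratory chain, at 0.41 ± 0.05 (edgeR adjusted p = 5.45e-05). Echs1 (-0.10 ± 0.05), Etfa (0.14 ± 0.05), Etfb (0.04 ± 0.06) and Eci1 (0.17 ± 0.06) did not pass. With the valve and atrial covariates 5 of the 21 rose, and without CD untreated replicates 2 and 3, 8.

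In peroxisomes, where very long chains are shortened, 5 of 17 tested genes rose and 0 fell, at a median of 0.16; Acaa1b was below the filter. Pex11a, which divides peroxisomes, was at 0.64 ± 0.09 (edgeR adjusted p = 4.57e-04), the carnitine acetyltransferase Crat at 0.40 ± 0.06, the bifunctional enzyme Hsd17b4 at 0.34 ± 0.05 and the transporter Abcd3 at 0.28 ± 0.06. Catalase (Cat), which clears the hydrogen peroxide of that pathway, had 435, 411, 416 and 439 CPM in HFHS ertugliflozin hearts, against 293, 337, 294 and 311 CPM in CD untreated hearts, without overlap, at 0.46 ± 0.07 (edgeR adjusted p = 6.62e-04). Ephx2, the soluble epoxide hydrolase that acts on fatty acid epoxides, had 525, 484, 509 and 484 CPM in HFHS ertugliflozin hearts, against 328, 316, 293 and 313 CPM in CD untreated hearts. That was a rise of 0.68 ± 0.07 (edgeR adjusted p = 1.13e-05) without overlap.

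Acyl-CoA thioesterases, which release free fatty acids from coenzyme A, were among the largest rises. Acot2, the mitochondrial enzyme at chr12:83987861-83993873, had 234, 244, 229 and 218 CPM in HFHS ertugliflozin hearts, against 113, 125, 113 and 124 CPM in CD untreated hearts. The groups were far apart relative to their spread. HFHS untreated hearts were at 168 to 230 CPM and CD ertugliflozin hearts at 115 to 139 CPM. The log2 fold change of Acot2 was 0.96 ± 0.08 (edgeR adjusted p = 3.16e-06). Its neighbours moved with it: cytosolic Acot1 was at 1.20 ± 0.17 (edgeR adjusted p = 0.00157), Acot3 at 1.15 ± 0.24 (edgeR adjusted p = 0.0117), and Acot4, chosen after its values were seen, at 0.80 ± 0.19 (edgeR adjusted p = 0.0282). These are close copies, so reads may have been split among them and their counts are uncertain. The call of Acot4 ended without HFHS ertugliflozin replicates 1, 3 or 4 or CD untreated replicates 1, 2 or 3, each left out alone.

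Of 25 tested genes of lipid uptake and storage 11 rose and 1 fell, at a median of 0.26. The median was 0.15 in HFHS untreated against CD untreated hearts and 0.080 in HFHS ertugliflozin against HFHS untreated hearts. Slc27a6 was below the filter. Gpam, the acyltransferase that opens triglyceride synthesis, had 426, 412, 420.3 and 401 CPM in HFHS ertugliflozin hearts, against 248, 257, 241 and 272 CPM in CD untreated hearts. The ranges of the groups were separate, with a log2 fold change of 0.71 ± 0.07 (edgeR adjusted p = 1.13e-05). Droplet proteins rose with it, among them Plin5 (0.46 ± 0.08) and Cidea (0.52 ± 0.06), whereas Plin3 fell by 0.37 (SE 0.07). The lipases Pnpla2 (0.29 ± 0.07), Lipe (0.61 ± 0.13) and Mgll (0.44 ± 0.09) rose, as did the transporter Slc27a1 (0.45 ± 0.08) and the fatty acid binding protein Fabp3 (0.43 ± 0.05). Fabp3 shares sequence with the pseudogene Fabp3-ps1, which was chosen after its values were seen and was at 0.46 ± 0.05 (edgeR adjusted p = 3.36e-05), so how their reads were divided is uncertain. Dgat1 (-0.01 ± 0.09) and Dgat2 (-0.01 ± 0.07), the last step of triglyceride synthesis, did not pass. The calls of Lipe and Pnpla2 depended on single libraries: that of Lipe ended without HFHS ertugliflozin replicates 1, 2 or 3 or CD untreated replicates 1, 2 or 3, and that of Pnpla2 without HFHS ertugliflozin replicates 1, 2, 3 or 4 or CD untreated replicates 2 or 3, each left out alone. Adipocyte markers did not move one way beside these genes. Of 11, 6 were tested, 2 with a positive and 4 with a negative log2 fold change at a median of -0.855, and their mean score was -0.211 in HFHS ertugliflozin hearts and 0.754 in CD untreated hearts, with overlapping groups. Their summed level was 106 to 113 CPM in HFHS ertugliflozin hearts, against 80.2 to 97.7 CPM in CD untreated hearts, a sum carried mostly by Lipe, which is 1 of the 11. The defining marker Adipoq held at most 27 counts in any of the 8 libraries, and the part of these cells in the result was not tested.

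Genes that build fatty acids and cholesterol showed no common direction: 1 of 26 tested rose and 2 fell, at a median of -0.02. The desaturase Scd2 was at -0.54 ± 0.12 (edgeR adjusted p = 0.0224) and the acetyl-CoA carboxylase Acaca at -0.38 ± 0.09 (edgeR adjusted p = 0.0348). Acacb, the carboxylase whose malonyl-CoA holds back carnitine palmitoyltransferase, was at 0.29 ± 0.07 (edgeR adjusted p = 0.03). Acaca lost its call without HFHS ertugliflozin replicates 2, 3 and 4 or without CD untreated replicates 1, 2 and 3 (each left out alone), Acacb without HFHS ertugliflozin replicates 1, 2 and 4 or without CD untreated replicates 2 and 3 (each left out alone) and Scd2 without HFHS ertugliflozin replicates 1, 2 and 4 or without CD untreated replicates 1 and 3 (each left out alone).

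**Figure D2:**
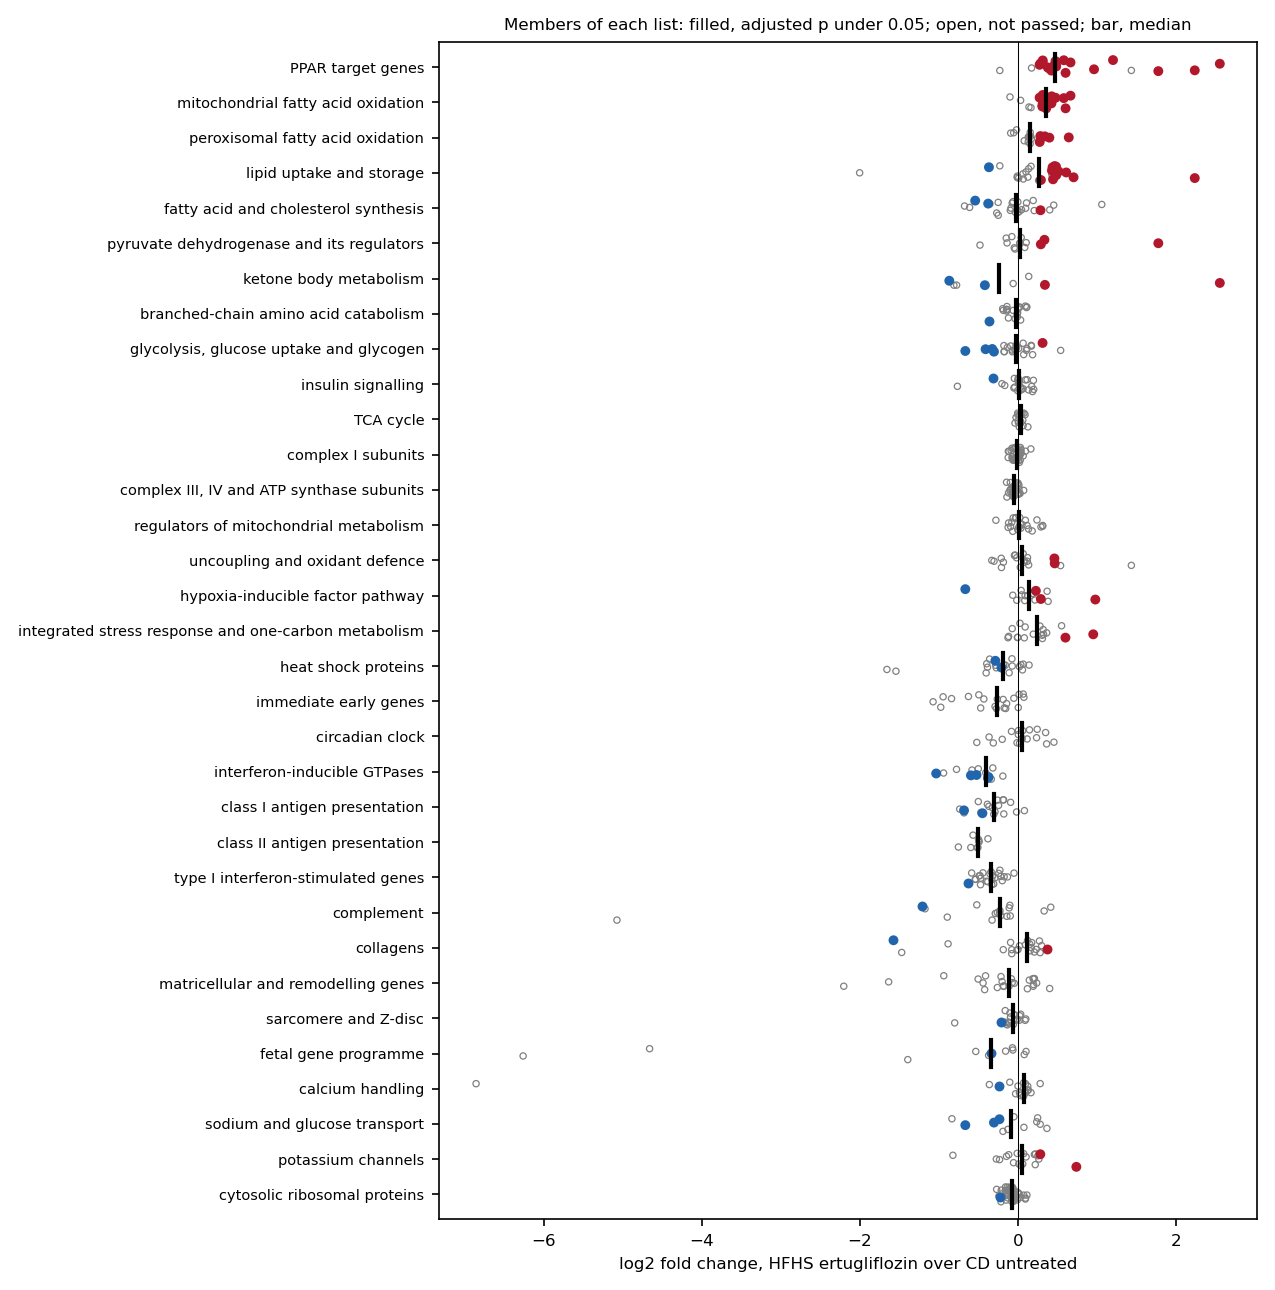
Each point is a tested member of a gene list, placed by its log2 fold change of HFHS ertugliflozin over CD untreated hearts; filled points passed an adjusted p of 0.05, open points did not, and the bar is the list's median. PPAR targets and mitochondrial fatty acid oxidation lie to the right with medians of 0.47 and 0.36, interferon-inducible GTPases to the left at -0.41, and the citric acid cycle and respiratory chain lists around 0 without a filled point.

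Ketone body genes were divided by direction. Oxct1 (ENSMUSG00000022186, chr15:4026383-4155344), the enzyme that commits ketone bodies to oxidation, had 1357, 1479, 1358 and 1379 CPM in HFHS ertugliflozin hearts, against 1844, 1864, 1753 and 1979 CPM in CD untreated hearts. It fell in HFHS ertugliflozin hearts without overlap, at -0.42 ± 0.05 (edgeR adjusted p = 9.14e-05). Acat1, the thiolase next to it in that pathway, rose by 0.34 ± 0.05. Slc16a7, a monocarboxylate carrier, was at -0.87 ± 0.17 (edgeR adjusted p = 0.00981). The dehydrogenase Bdh1 was at -0.81 ± 0.29 (edgeR adjusted p = 0.174) and did not pass, although its groups did not overlap (107, 90.2, 87.8 and 107 CPM in HFHS ertugliflozin hearts and 124, 171, 165 and 225 CPM in CD untreated hearts). In all, 2 of 8 genes rose and 2 fell.

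Oxct1 was at 1369, 1522, 1496 and 1446 CPM in HFHS untreated hearts and 1852, 1876, 1931 and 1977 CPM in CD ertugliflozin hearts, and its difference between HFHS ertugliflozin and HFHS untreated hearts was -0.07 ± 0.05 (edgeR adjusted p = 1).

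**Figure D3:**
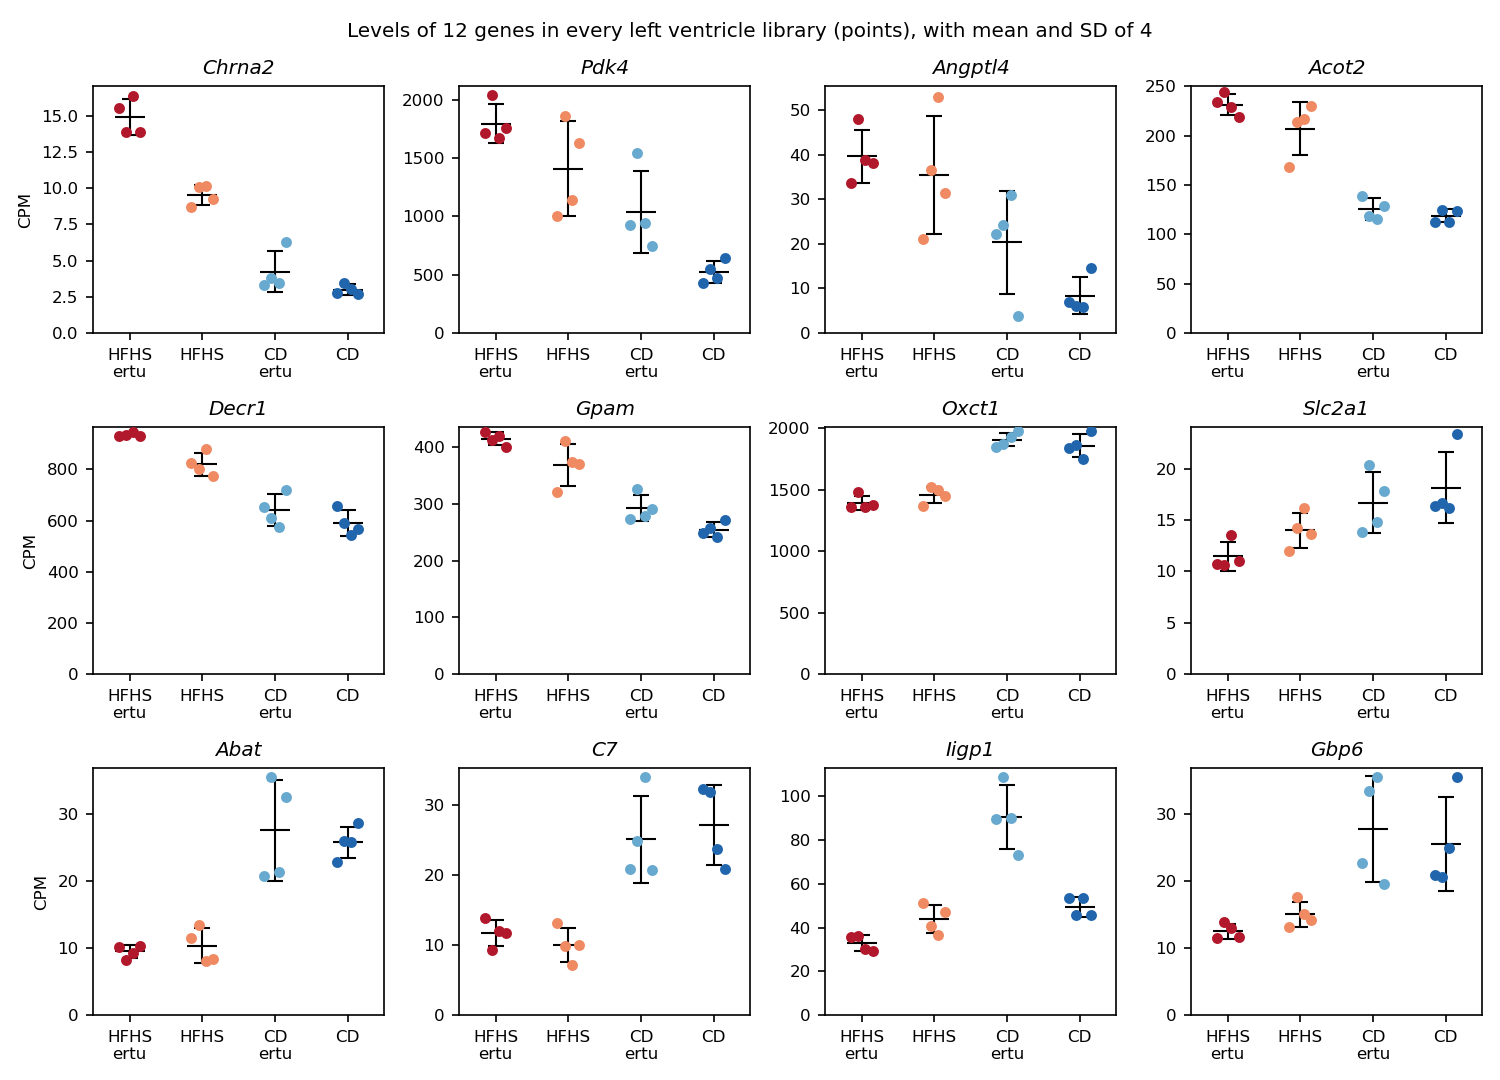
Points are the CPM of 12 genes in every library, with the groups from left to right HFHS ertugliflozin, HFHS untreated, CD ertugliflozin and CD untreated, and bars are the mean and SD of 4. Chrna2 is higher in every HFHS ertugliflozin library than in any library of the other groups, while Abat and C7 are low in both HFHS groups and Iigp1 is highest in CD ertugliflozin hearts.

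Genes of glucose use that passed by edgeR were lower, with 1 exception. Slc2a1, the basal glucose transporter, had 10.7, 10.6, 13.6 and 11 CPM in HFHS ertugliflozin hearts, against 16.4, 16.7, 16.2 and 23.4 CPM in CD untreated hearts. The groups stood apart in all 8 libraries, and the log2 fold change was -0.66 ± 0.14 (edgeR adjusted p = 0.015). The insulin-responsive transporter Slc2a4 had 362, 363, 344 and 363 CPM in HFHS ertugliflozin hearts, against 441, 409, 419.9 and 495 CPM in CD untreated hearts, at -0.30 ± 0.07 (edgeR adjusted p = 0.0273). The call of Slc2a1 ended without HFHS ertugliflozin replicates 1, 2 and 4 (each left out alone), and that of Slc2a4 without HFHS ertugliflozin replicates 1, 2, 3 and 4 or without CD untreated replicates 1 and 4 (each left out alone). Among 25 genes of glycolysis, glucose uptake and glycogen 1 rose and 4 fell, at a median of -0.025: besides the transporters, Pfkfb2, which makes the activator of phosphofructokinase, was at -0.41 ± 0.07 (edgeR adjusted p = 0.00458) and the muscle enolase Eno3 at -0.32 ± 0.07 (edgeR adjusted p = 0.0101), and the phosphofructokinase Pfkl was at 0.31 ± 0.07 (edgeR adjusted p = 0.0282). Most enzymes of the path did not pass, with Hk2 at -0.07 ± 0.07, Gapdh at 0.07 ± 0.14 and Pkm at 0.11 ± 0.05. Pfkl lost its call without HFHS ertugliflozin replicates 1, 2 or 3 or CD untreated replicates 1, 2 or 3, each left out alone. For the 25 genes DESeq2 gave 2 rises and 5 falls, and limma-voom 4 rises and 5 falls. With the valve and atrial covariates 0 rose and 1 fell, and without CD untreated replicates 2 and 3, 0 rose and 4 fell.

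Of 14 genes of the pyruvate dehydrogenase complex and its control, 3 rose and 0 fell, at a median of 0.025. All 3 are regulators: Pdk4, its paralog Pdk1 (0.29 ± 0.05 (edgeR adjusted p = 0.00503)) and Pdpr, a regulatory subunit of the phosphatase (0.34 ± 0.08 (edgeR adjusted p = 0.0315)). Subunits of the complex itself did not pass, with Pdha1 at -0.03 ± 0.04 and Dlat at 0.11 ± 0.05. Insulin signalling had 1 fall among 23 genes, the kinase Akt1 (-0.31 ± 0.07 (edgeR adjusted p = 0.0134)), and branched-chain amino acid breakdown had 1 among 20, the dehydrogenase subunit Bckdhb. Among all tested genes 0.764% fell, and a single call is not read as a result about its list. Bckdhb had 44, 45.2, 40.6 and 43.1 CPM in HFHS ertugliflozin hearts, against 55.6, 53.6, 52.1 and 61.5 CPM in CD untreated hearts, without overlap, at -0.36 ± 0.06 (edgeR adjusted p = 0.00368). Pdpr lost its call without HFHS ertugliflozin replicates 1, 3 or 4 or CD untreated replicates 2, 3 or 4, each left out alone, and 0 of the 14 genes passed with the valve and atrial covariates. Akt1 lost its call without HFHS ertugliflozin replicate 3 or without CD untreated replicate 3 (each left out alone).

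For the shared machinery of the mitochondrion no call was made. Of 17 citric acid cycle genes, 36 complex I subunits and 37 subunits of complexes III and IV and the ATP synthase, 0 passed by edgeR in either direction, where 2.7% of all genes did. Their medians were 0.035, -0.0091 and -0.045, and the widest member of the 3 lists was at 0.16 log2 units, of the complex I subunit Ndufa3. In the same order of lists, 1, 3 and 2 genes had an unadjusted p under 0.05, 0, 0 and 1 passed by DESeq2, and 0, 1 and 1 by limma-voom. Of 24 regulators 0 passed (6 at an unadjusted p under 0.05, 2 by DESeq2 and 3 by limma-voom), with Ppara at -0.12 ± 0.11, its partner Rxra at 0.18 ± 0.05 and the coactivator Ppargc1a at -0.08 ± 0.10. Ucp2, an uncoupling protein, had 79.1, 62.1, 87.5 and 69.6 CPM in HFHS ertugliflozin hearts, against 56.1, 49.8, 52.4 and 57.6 CPM in CD untreated hearts. Its groups did not overlap, and its log2 fold change of 0.47 ± 0.12 (edgeR adjusted p = 0.0489) lost its call without HFHS ertugliflozin replicates 1, 3 and 4 or without CD untreated replicates 1, 2, 3 and 4 (each left out alone).

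Of 16 genes of the hypoxia pathway 3 rose and 1 fell, at a median of 0.15. Egln3, a prolyl hydroxylase that marks hypoxia-inducible factors for breakdown, had 189, 189.5, 193 and 180.4 CPM in HFHS ertugliflozin hearts, against 91.2, 88.6, 94.8 and 107 CPM in CD untreated hearts. The groups did not overlap, at 0.98 ± 0.12 (edgeR adjusted p = 3.86e-04). Epas1, 1 of those factors, rose by 0.23 ± 0.06, a call that ended without HFHS ertugliflozin replicates 1, 2, 3 or 4 or CD untreated replicates 1, 2 or 3, each left out alone, and the other 2 called genes, Pdk1 and Slc2a1, are described above. Vegfa (-0.06 ± 0.14) and Ankrd37 (0.05 ± 0.17), common targets of the pathway, did not pass.

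Of 18 tested genes of the integrated stress response and one‑carbon metabolism 2 rose, at a median of 0.24. Mthfd2, the mitochondrial folate dehydrogenase, had 8.87, 10.9, 10.4 and 11.3 CPM in HFHS ertugliflozin hearts, against 4.0, 6.0, 5.52 and 5.69 CPM in CD untreated hearts. No library crossed into the other group's range, at 0.95 ± 0.18 (edgeR adjusted p = 0.00734). Psat1, of serine synthesis, was at 0.60 ± 0.13 (edgeR adjusted p = 0.0186). Its call ended without HFHS ertugliflozin replicates 3 or 4, each left out alone. The transcription factor Atf4 (-0.12 ± 0.11) and Ddit3 (-0.12 ± 0.13) did not pass. Fgf21 was below the filter, with at most 7 counts in any of the 8 libraries. Tfrc, the transferrin receptor through which cells take up iron, had 176, 222, 188 and 157 CPM in HFHS ertugliflozin hearts, against 122, 61.4, 80.1 and 43.5 CPM in CD untreated hearts, at 1.28 ± 0.29 (edgeR adjusted p = 0.0347). CD untreated libraries were widely spread, and the call of Tfrc ended without HFHS ertugliflozin replicates 1, 2, 3 and 4 or without CD untreated replicates 2, 3 and 4 (each left out alone).

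Heat shock genes had 0 rises and 2 falls among 20 by edgeR, at a median of -0.19. At an unadjusted p under 0.05 stood 10, and DESeq2 gave 6 falls and limma-voom 8. With the valve and atrial covariates 0 of the 20 passed, and without CD untreated replicates 2 and 3 also 0. The mitochondrial chaperonin Hspe1 was at -0.28 ± 0.05 (edgeR adjusted p = 0.00498) and the small heat shock protein Cryab at -0.21 ± 0.05 (edgeR adjusted p = 0.0454), whose call ended without any 1 of the 8 libraries. Neither immediate early genes (0 of 20 by edgeR, median -0.27; 1 at an unadjusted p under 0.05, 0 by DESeq2 and 0 by limma-voom), which follow handling of the tissue, nor clock genes (0 of 19, median 0.052; 0 at an unadjusted p under 0.05, 0 by DESeq2 and 0 by limma-voom) had a member that passed.

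Interferon-driven genes lay mostly on the lower side in HFHS ertugliflozin hearts, with few that passed. Among interferon-inducible GTPases, which attack the membranes around intracellular parasites, of 15 tested genes 5 fell, 0 rose and 15 had a negative log2 fold change, at a median of -0.41; Gbp2b was below the filter. With the valve and atrial covariates 0 of the 15 passed, at a median of -0.47, and without CD untreated replicates 2 and 3 also 0, at -0.36. Their promoters are shown for 4 members of chromosome 11 because 3 of them, Igtp, Irgm2 and Tgtp2, carry both kinds of interferon element side by side, and the stretch shown of Irgm1 carries 1 kind only. A pair of GAAA with 2 bases between is the core of the element bound by interferon regulatory factors, and TTC with GAA after 3 bases is the palindrome bound by STAT dimers. On both strands of the RefSeq windows, without mismatch, the GAAA pair was present in 10 of 11 promoters of the 10 GTPase genes in the table (90.9%), in 5 of 18 promoters of class I genes (27.8%) and in 3.44% of all promoters. The palindrome was in 6 of the 11 and in 8.3% of all. The palindrome followed after 2 bases by the GAAA pair occurred in 5 promoters of all 32851 (0.0152%), and 4 of these belong to the GTPases. The genes are related copies, so the matches are not independent of each other. Capitals mark the matched bases, and in Irgm1 they mark 2 overlapping GAAA pairs.
Igtp (chr11:58199496-58199555, + strand): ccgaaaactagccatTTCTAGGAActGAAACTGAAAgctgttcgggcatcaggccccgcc
Irgm2 (chr11:58214887-58214946, + strand): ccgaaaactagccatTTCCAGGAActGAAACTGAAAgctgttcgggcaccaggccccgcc
Tgtp2 (chr11:49064248-49064307, - strand): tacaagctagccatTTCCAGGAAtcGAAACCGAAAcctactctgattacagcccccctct
Irgm1 (chr11:48871421-48871480, - strand): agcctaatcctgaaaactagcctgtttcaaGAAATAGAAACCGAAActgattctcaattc

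Iigp1 had 35.9, 36.1, 30.1 and 29.2 CPM in HFHS ertugliflozin hearts, against 53.4, 45.6, 53.7 and 45.6 CPM in CD untreated hearts. Every HFHS ertugliflozin library was below every CD untreated library, and the log2 fold change was -0.59 ± 0.12 (edgeR adjusted p = 0.0176). Igtp had 14.5, 12.3, 14.5 and 12.2 CPM in HFHS ertugliflozin hearts, against 20.4, 16.5, 21.4 and 18.6 CPM in CD untreated hearts, also without overlap, at -0.52 ± 0.12 (edgeR adjusted p = 0.0299). Gbp6 had 11.5, 13.8, 12.9 and 11.6 CPM in HFHS ertugliflozin hearts, against 20.9, 20.5, 24.9 and 35.5 CPM in CD untreated hearts. It fell without overlap at -1.03 ± 0.21 (edgeR adjusted p = 0.0163), although its close copy Gbp10 (-0.94 ± 0.50) did not pass and reads may be divided between them. Irgm1 (-0.38 ± 0.10 (edgeR adjusted p = 0.0394)) and Gbp5 (-0.37 ± 0.09 (edgeR adjusted p = 0.0342)) fell too, whereas Irgm2 (-0.32 ± 0.12), Tgtp1 (-0.78 ± 0.25) and Tgtp2 (-0.58 ± 0.16 (edgeR adjusted p = 0.0529)) did not pass. Tgtp1 and Tgtp2 are near-identical. Irgm1 lost its call without HFHS ertugliflozin replicates 2, 3 or 4 or CD untreated replicates 1 or 3, and Gbp5 without HFHS ertugliflozin replicates 1, 2, 3 or 4 or CD untreated replicates 1, 2 or 3, each left out alone. The call of Iigp1 ended without HFHS ertugliflozin replicates 3 and 4 or without CD untreated replicates 1 and 3 (each left out alone), that of Igtp without HFHS ertugliflozin replicates 1, 2, 3 and 4 or without CD untreated replicates 1 and 3 (each left out alone) and that of Gbp6 without HFHS ertugliflozin replicates 1 and 4 (each left out alone).

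Antigen presentation showed the same sign with few calls. Of 19 class I genes 2 fell and 18 were negative, at a median of -0.30. Nlrc5, the transactivator of class I genes, had 6.38, 5.62, 5.3 and 5.17 CPM in HFHS ertugliflozin hearts, against 8.69, 8.4, 9.94 and 9.1 CPM in CD untreated hearts. Its groups did not overlap, at -0.68 ± 0.17 (edgeR adjusted p = 0.0428). The class I molecule H2-T22 was at -0.45 ± 0.11 (edgeR adjusted p = 0.0443). Both calls ended without any 1 of the 8 libraries. Of 9 class II genes 0 passed by edgeR (2 at an unadjusted p under 0.05, 0 by DESeq2 and 0 by limma-voom) and 9 were negative, at a median of -0.51, which was -0.0253 with the valve and atrial covariates and -0.26 without CD untreated replicates 2 and 3. Of the class I genes 0 passed in either of these fits, at medians of -0.23 and -0.24. Of 25 type I interferon-stimulated genes 25 were negative, at a median of -0.34, and 1 fell, where 0.764% of all tested genes did. That gene was Oas2, a sensor of double-stranded RNA, with 17.4, 14.4, 12.5 and 13.6 CPM in HFHS ertugliflozin hearts, against 18.6, 24, 24.4 and 22.9 CPM in CD untreated hearts. Its groups did not overlap, at -0.63 ± 0.15 (edgeR adjusted p = 0.0348), and the call ended without HFHS ertugliflozin replicates 2, 3 and 4 or without CD untreated replicates 2, 3 and 4 (each left out alone).

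For these genes the size of the difference varied with the arm set beside HFHS ertugliflozin hearts. The GTPase list had a median log2 fold change of -0.37 in HFHS ertugliflozin against HFHS untreated hearts and -0.98 in HFHS ertugliflozin against CD ertugliflozin hearts. Iigp1 was at 51.4, 40.8, 36.6 and 47.1 CPM in HFHS untreated hearts and 89.8, 109, 90.2 and 73.2 CPM in CD ertugliflozin hearts. HFHS ertugliflozin libraries lay below and CD ertugliflozin libraries above every CD untreated library. The test of the interaction, in which the drug difference on HFHS is set against the drug difference on CD, passed for 3 of 15841 genes (0.0189%): Tgtp2 at -1.38 ± 0.22, Igtp at -1.13 ± 0.17 and Iigp1 at -1.29 ± 0.17 (edgeR adjusted p = 0.0219 for each). Macrophage markers, whose cells carry many interferon genes, summed to 457 to 544 CPM in HFHS ertugliflozin hearts and 499 to 684 CPM in CD untreated hearts. None of the 18 passed by edgeR (6 at an unadjusted p under 0.05, 0 by DESeq2 and 2 by limma-voom), 17 were negative, the median was -0.26 (-0.0349 with the covariates), and the part of such cells in the result was not tested.

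**Figure D4:**
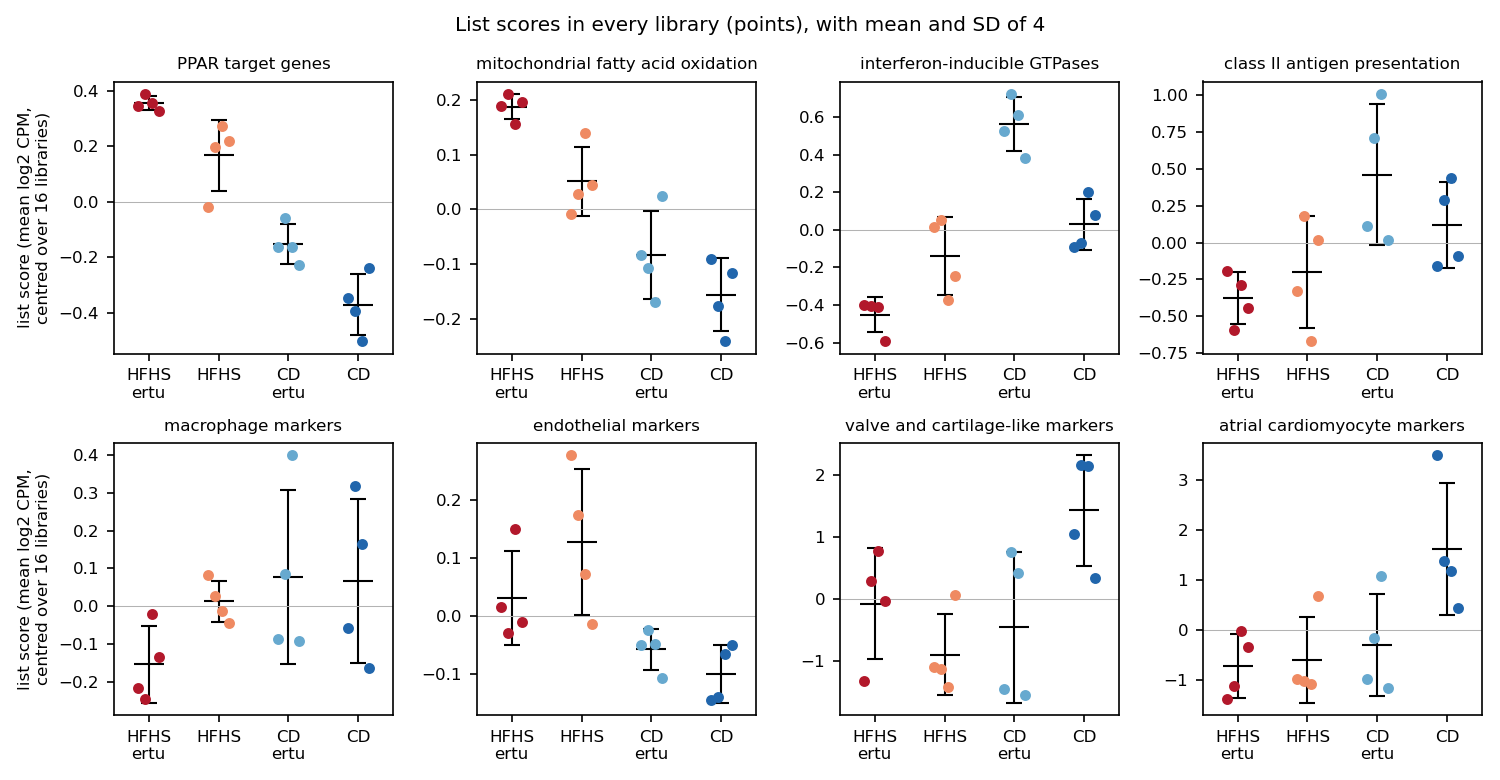
Points are list scores, the mean log2 CPM of a list's genes centred over the 16 libraries, with the groups from left to right HFHS ertugliflozin, HFHS untreated, CD ertugliflozin and CD untreated; bars are the mean and SD of 4. PPAR target scores of HFHS ertugliflozin hearts all lie above those of CD untreated hearts and GTPase scores all lie below them, while valve and atrial scores are on average highest in CD untreated hearts.

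Few complement and matrix genes passed. C7, which helps to form the membrane attack complex, had 13.8, 9.28, 11.9 and 11.7 CPM in HFHS ertugliflozin hearts, against 32.2, 31.7, 23.7 and 20.8 CPM in CD untreated hearts. The ranges of the groups were separate, at -1.21 ± 0.20 (edgeR adjusted p = 0.00498), and it was the only call by edgeR among 17 tested complement genes, whose median was -0.23; DESeq2 gave 2 falls and limma-voom 3. The difference of C7 was -0.76 (edgeR adjusted p = 0.254) with the valve and atrial covariates and -1.17 (edgeR adjusted p = 0.0572) without CD untreated replicates 2 and 3. In each of these fits 1 complement gene rose and 0 fell. Of 22 collagens 1 rose and 1 fell. Over all tested genes 1.93% rose and 0.764% fell. Col4a2, of the basement membrane, was at 0.38 ± 0.09 (edgeR adjusted p = 0.0427), a call that ended without HFHS ertugliflozin replicates 1, 2, 3 and 4 or without CD untreated replicates 1, 2 and 4 (each left out alone). Col11a2, a cartilage-type collagen, had 1.45, 2.08, 1.81 and 2.52 CPM in HFHS ertugliflozin hearts, against 5.33, 7.85, 6.98 and 3.07 CPM in CD untreated hearts, at -1.57 ± 0.25 (edgeR adjusted p = 0.0018). None of 25 matricellular and remodelling genes passed by edgeR (5 at an unadjusted p under 0.05, 0 by DESeq2 and 1 by limma-voom), with Postn at -0.18 ± 0.35 and Tgfb2 at 0.20 ± 0.17.

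Cilp2, a cartilage matrix protein on the valve marker list, had 0.0469, 0.394, 0.843 and 0.352 CPM in HFHS ertugliflozin hearts, against 4.76, 5.56, 3.33 and 0.614 CPM in CD untreated hearts. The groups overlapped, because CD untreated replicate 4 lay among the HFHS ertugliflozin libraries. Its log2 fold change was -3.16 ± 0.79 (edgeR adjusted p = 0.0491), the call ended without HFHS ertugliflozin replicates 1, 2, 3 and 4 or without CD untreated replicates 1, 2 and 3 (each left out alone), and it stood at 0.24 with valve and atrial scores as covariates. Cilp2 is itself part of that valve score, so the covariate fit cannot show how far its difference depends on such tissue. All 11 tested valve markers were negative, at a median of -1.13, and of these Cilp2 alone passed by edgeR, where DESeq2 gave 0 and limma-voom 7 falls. Col11a2 without CD untreated replicates 2 and 3 did not pass (edgeR adjusted p = 0.0676).

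The gene with the smallest adjusted p was Chrna2 (ENSMUSG00000022041, chr14:66135039-66152948), an alpha subunit of nicotinic acetylcholine receptors. It had 15.6, 13.9, 16.4 and 13.9 CPM in HFHS ertugliflozin hearts, against 2.79, 3.49, 3.02 and 2.68 CPM in CD untreated hearts. The groups lay far apart, at 2.31 ± 0.16 (edgeR adjusted p = 1.72e-07). HFHS untreated hearts were at 8.7, 10.1, 10.2 and 9.26 CPM and CD ertugliflozin hearts at 3.29, 3.8, 3.48 and 6.32 CPM. All HFHS ertugliflozin libraries were above all HFHS untreated libraries, a difference of 0.64 ± 0.14 with an unadjusted p of 2.20e-04 that did not pass over all genes (edgeR adjusted p = 0.653). The rise passed under all 20 alternatives tried, at 0.90 to 2.45.

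Of 20 potassium channel genes 2 rose, where 1.93% of all tested genes did. Kcnk2, a stretch-sensitive background channel, had 6.52, 6.3, 5.48 and 5.05 CPM in HFHS ertugliflozin hearts, against 2.92, 3.22, 3.59 and 4.24 CPM in CD untreated hearts. The groups stood apart in all 8 libraries, at 0.74 ± 0.14 (edgeR adjusted p = 0.00694). Sodium channel genes chosen after their values were seen rose as well: Scn4b, an auxiliary beta subunit, had 249, 204, 216 and 205 CPM in HFHS ertugliflozin hearts, against 103, 109, 77.5 and 109 CPM in CD untreated hearts, at 1.13 ± 0.20 (edgeR adjusted p = 0.00975), and Scn4a, the skeletal muscle alpha subunit, was at 0.85 ± 0.14 (edgeR adjusted p = 0.00438). With the valve and atrial covariates Kcnk2, Scn4b and Scn4a did not pass (edgeR adjusted p = 0.182, 0.193 and 0.155). Nor did they without CD untreated replicates 2 and 3 (edgeR adjusted p = 0.102, 0.112 and 0.0554).

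Of 12 tested genes of sodium and glucose transport 3 fell and 0 rose, with Slc2a1 and Slc2a4 among them. Over all tested genes 0.764% fell and 1.93% rose. Slc5a2, the gene of SGLT2 itself, held at most 2 counts in any of the 8 libraries and was not tested. Slc5a1, its relative SGLT1, had 0.328, 1.24, 1.02 and 0.646 CPM in HFHS ertugliflozin hearts, against 1.59, 0.981, 1.61 and 1.51 CPM in CD untreated hearts. The groups overlapped, and its difference of -0.83 ± 0.33 (edgeR adjusted p = 0.205) did not pass.

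Few genes of contraction passed by edgeR, where 1.93% of all tested genes rose and 0.764% fell. Of 21 sarcomere genes 1 fell, Tnnc1, cardiac troponin C, with 1968, 2221, 2202 and 2236 CPM in HFHS ertugliflozin hearts, against 2449.6, 2492, 2421 and 2617 CPM in CD untreated hearts. Its groups did not overlap, at -0.21 ± 0.05 (edgeR adjusted p = 0.0213), a call that ended without HFHS ertugliflozin replicate 1 or without CD untreated replicates 2 and 4 (each left out alone). Of 20 calcium-handling genes S100a1, an activator of the calcium pump and release channel, fell by 0.24 on the log2 scale (SE 0.06, edgeR adjusted p = 0.0278), while the pump Atp2a2 was at 0.00 ± 0.07. Of the 20, 15 were positive and 5 negative, at a median of 0.073 and with the lowest at -6.85. Scores of this list were -0.103 to 0.0309 in HFHS ertugliflozin hearts, against 0.046 to 0.403 in CD untreated hearts, without overlap. The call of S100a1 ended without HFHS ertugliflozin replicates 1, 2 or 3 or CD untreated replicates 1 or 4, each left out alone. The alpha myosin heavy chain Myh6 was at -0.11 ± 0.07 and the beta chain Myh7 at -0.37 ± 0.48, and neither passed. Myh7b, another myosin heavy chain chosen after its values were seen, had 84, 98.4, 77.6 and 101 CPM in HFHS ertugliflozin hearts, against 156, 158, 142 and 141 CPM in CD untreated hearts, at -0.73 ± 0.13 (edgeR adjusted p = 0.00602).

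Of 11 tested genes of the fetal programme, which returns in stressed ventricles, 1 fell, where 0.764% of all tested genes did. It was the brain creatine kinase Ckb (-0.34 ± 0.09 (edgeR adjusted p = 0.0403)), whose groups overlapped. That call ended without HFHS ertugliflozin replicates 1, 2, 3 or 4 or CD untreated replicates 2, 3 or 4, each left out alone. Nppa, the atrial natriuretic peptide, had 69, 57, 59.6 and 93.9 CPM in HFHS ertugliflozin hearts, against 358, 207, 92.2 and 77.8 CPM in CD untreated hearts. The highest CD untreated library was also the one with the highest atrial score. Nppa is itself part of that score, so this match is not independent of its level. The groups overlapped, and the difference of -1.39 ± 0.45 (edgeR adjusted p = 0.134) did not pass. Nppb had 186, 267, 129 and 316 CPM in HFHS ertugliflozin hearts, against 338, 471, 374 and 114 CPM in CD untreated hearts, with wide overlap, at -0.53 ± 0.49 (edgeR adjusted p = 0.648).

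Further large falls were those of Abat, Sv2c and Gcat. Abat, the transaminase that breaks down GABA, had 10.1, 8.21, 9.28 and 10.3 CPM in HFHS ertugliflozin hearts, against 22.8, 25.8, 25.7 and 28.5 CPM in CD untreated hearts. The highest HFHS ertugliflozin library was below the lowest CD untreated library, at -1.44 ± 0.19 (edgeR adjusted p = 6.59e-04). HFHS untreated hearts were at 11.5, 13.4, 8.07 and 8.29 CPM and CD ertugliflozin hearts at 20.8, 35.4, 21.3 and 32.5 CPM. Sv2c, a synaptic vesicle protein, had 0.235, 0.843, 1.08 and 0.998 CPM in HFHS ertugliflozin hearts, against 2.98, 4.74, 2.55 and 2.23 CPM in CD untreated hearts, without overlap, at -2.02 ± 0.39 (edgeR adjusted p = 0.00904). Gcat, which degrades threonine to glycine, was at -1.12 ± 0.23 (edgeR adjusted p = 0.00952). Among amino acid enzymes the proline dehydrogenase Prodh, chosen after its values were seen, fell too, at -0.62 ± 0.13 (edgeR adjusted p = 0.0142). Apoe, a lipoprotein component made by macrophages and chosen in the same way, was at -0.66 ± 0.14 (edgeR adjusted p = 0.0224). Apoe lost its call without HFHS ertugliflozin replicates 1, 2 or 4 or CD untreated replicates 2 or 3, each left out alone, and was at -0.42 (edgeR adjusted p = 0.377) with the valve and atrial covariates. Prodh lost its call without HFHS ertugliflozin replicate 1.

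Other genes with small adjusted p and non-overlapping groups were Hsdl2 at 0.46 ± 0.04 (edgeR adjusted p = 1.03e-05), Fbxo21, an F-box protein, at 0.57 ± 0.06 (edgeR adjusted p = 1.13e-05), Lix1l at 0.57 ± 0.06 (edgeR adjusted p = 1.36e-05) and the mitochondrial ATPase Vwa8 at 0.77 ± 0.08 (edgeR adjusted p = 3.36e-05). Rtl3, a gene derived from a retrotransposon, was at 1.17 ± 0.27 (edgeR adjusted p = 0.026) with levels of 1.82 ± 0.438 CPM in HFHS ertugliflozin hearts and 0.817 ± 0.125 CPM in CD untreated hearts, a call that ended without HFHS ertugliflozin replicates 1, 3 or 4 or CD untreated replicates 2, 3 or 4, each left out alone. Chosen after their values were seen, the membrane repair protein Dysf was at 0.46 ± 0.06 (edgeR adjusted p = 1.40e-04), the transcription factor Tshz1 at 0.54 ± 0.06 (edgeR adjusted p = 6.30e-05), the acyl-CoA binding protein Dbi at 0.58 ± 0.06 (edgeR adjusted p = 3.84e-05), the lipid droplet dehydrogenase Hsd17b11 at 0.86 ± 0.12 (edgeR adjusted p = 9.01e-04) the water channel Aqp4 at 1.12 ± 0.22 (edgeR adjusted p = 0.00904) and the peptide hormone receptor Vipr2 at 0.85 ± 0.18 (edgeR adjusted p = 0.0142). Of 44 ribosomal protein genes 1 fell, Rpl18 (-0.22 ± 0.06 (edgeR adjusted p = 0.0476)), at a list median of -0.078. Over all tested genes 0.764% fell. The call of Rpl18 ended without HFHS ertugliflozin replicates 1, 2, 3 or 4 or CD untreated replicates 1, 2 or 4, and that of Vipr2 without HFHS ertugliflozin replicate 3 or CD untreated replicate 3, each left out alone.

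Against HFHS untreated hearts, the 4 of smallest unadjusted p among the changed genes of at least 1 CPM were Chrna2, Oas2, Fbxo21 and Cd3eap, and none passed over all genes. Oas2 was at -0.69 ± 0.15 (unadjusted edgeR p of 3.34e-04), with 26.8, 28.1, 17.3 and 21.3 CPM in HFHS untreated hearts. Fbxo21 was at 0.22 ± 0.06 and Cd3eap, a subunit of RNA polymerase I, at -0.24 ± 0.06. Against CD untreated hearts the call of Cd3eap ended without HFHS ertugliflozin replicate 3 or CD untreated replicate 3, each left out alone. Their adjusted p in edgeR was 0.653 for Oas2, 1 for Fbxo21 and 1 for Cd3eap. Aldh1a2, an enzyme of retinoic acid synthesis, had 6.15, 4.72, 6.38 and 7.16 CPM in HFHS ertugliflozin hearts, against 4.57, 6.87, 3.85 and 3.24 CPM in CD untreated hearts. The groups overlapped, and the difference of 0.40 ± 0.20 (edgeR adjusted p = 0.335) did not pass. It was 7.51 to 10.8 CPM in HFHS untreated hearts, above every HFHS ertugliflozin library, but that difference of -0.66 ± 0.19 (edgeR adjusted p = 1) did not pass either.

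Markers of the left ventricle's own cells were abundant in every library. Ventricular cardiomyocyte markers summed to 85898 to 91811 CPM in HFHS ertugliflozin hearts and 88931 to 98199 CPM in CD untreated hearts, and 1 of 10 fell, the creatine kinase Ckm (-0.24 ± 0.06 (edgeR adjusted p = 0.03)). Of the 10, 9 were negative, at a median of -0.116. Their scores were -0.0954 to -0.00483 in HFHS ertugliflozin hearts, against 0.00394 to 0.0945 in CD untreated hearts, without overlap. Of 18 endothelial markers 1 rose, Cdh5, the cadherin of endothelial junctions (0.29 ± 0.07 (edgeR adjusted p = 0.0348)); 17 of 18 were positive and the scores were -0.0295 to 0.149 in HFHS ertugliflozin hearts, against -0.145 to -0.0497 in CD untreated hearts. Each call depended on single libraries: that of Ckm ended without HFHS ertugliflozin replicates 1, 2 or 3 or CD untreated replicates 1, 3 or 4, and that of Cdh5 without HFHS ertugliflozin replicates 1, 2 or 3 or CD untreated replicates 1, 2 or 3, each left out alone, and Cdh5 was at 0.17 (edgeR adjusted p = 0.537) with the valve and atrial covariates. None of 14 fibroblast (median 0.023), 12 smooth muscle and pericyte (0.099), 9 red cell (-0.26), 9 Schwann cell and neuron (-0.15) or 5 mesothelial (0.042) markers passed by edgeR. At an unadjusted p under 0.05 stood 1 fibroblast, 4 smooth muscle and pericyte, 4 red cell, 3 Schwann cell and neuron and 0 mesothelial markers. By DESeq2 2 smooth muscle and pericyte markers rose, and by limma-voom 2 of these rose and 1 red cell marker fell. Of 15 lymphocyte markers 8 were tested (median 0.23) and of 10 neutrophil markers 3 (-0.33), none of which passed by edgeR, DESeq2 or limma-voom (2 and 1 at an unadjusted p under 0.05); Ly6g, Camp and Ngp were at 0 in all 8 libraries. Of 12 skeletal muscle markers 6 were tested, Ckm fell and Myh4 was at 0. In bulk tissue fewer cells of a type and less RNA per cell cannot be told apart.

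A comparison that shares no library with the one described here is that of HFHS untreated with CD ertugliflozin hearts, added after the results were seen. It has the diet on the same side and the drug on the opposite side. Of the 306 higher genes 299 had the same sign there, 123 passed in that direction and 0 in the other, with a median log2 fold change of 0.24 there and 0.35 here. Of the 121 lower genes 115 had the same sign, 45 passed in that direction and 0 in the other, with a median of -0.26 there and -0.37 here. Over all tested genes 3.6% passed, 1.96% as higher and 1.64% as lower in that comparison. The 13 genes of opposite sign included Aqp4 at -0.12, Oas2 at 0.34 and Cd3eap at 0.07, none of which passed there.

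**Figure D5:**
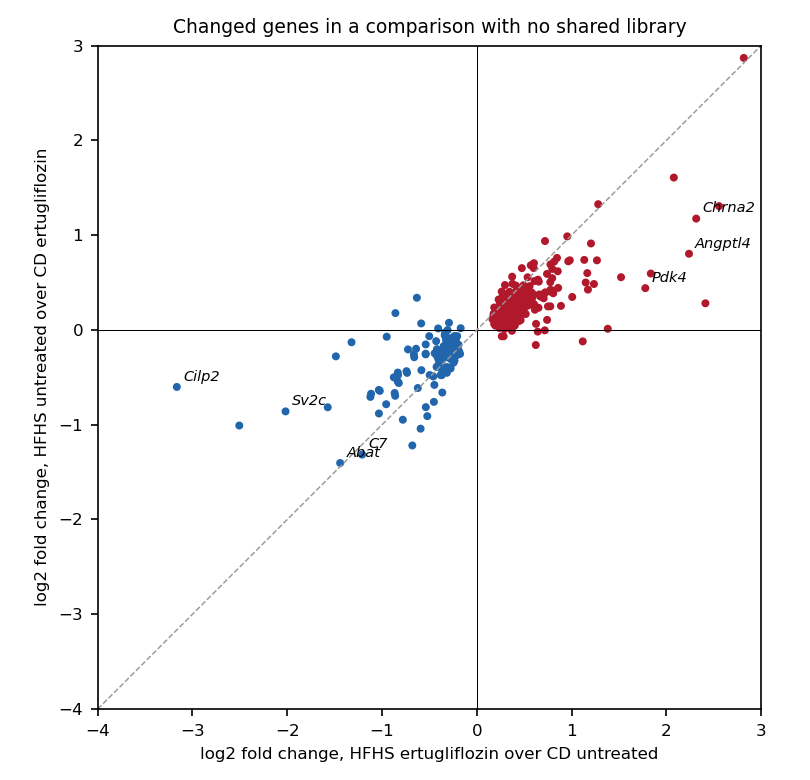
Each point is 1 of the 427 changed genes, with the log2 fold change of HFHS ertugliflozin over CD untreated hearts on the x axis and that of HFHS untreated over CD ertugliflozin hearts on the y axis; the dashed line marks equal values. Of the 306 higher genes (red) 299 lie above 0 on the y axis, and of the 121 lower genes (blue) 115 lie below it.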

How the data were processed

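Left ventricle RNA of 16 mice was sequenced, and the 8 libraries of HFHS ertugliflozin and CD untreated mice are compared. The authors deposited whole-number read counts per Ensembl gene, not normalized, and regularized log2 values that served as an alternative input. The submitters' processing notes name STAR 2.6.0c, featureCounts, Subread 1.6.2, DESeq2 1.22.1, FastQC 0.11.7 and mm10. For annotation, strand setting and reads with several matches the settings were not given in the sources used here, so close copies and overlapping genes are uncertain. Libraries were poly(A) selected and directional, from 250 ng of RNA, per the labels' protocols. Symbols and coordinates came from GENCODE M21 (GRCm38) for 53669 of 53764 IDs. The table held 0 mitochondrially encoded genes.

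The test was edgeR 4.0.16 in R 4.3.3: filterByExpr over 4 groups, TMM factors, 1 robust quasi-likelihood fit of 16 libraries, Benjamini-Hochberg adjustment over 15841 genes and a threshold of 0.05. The common biological coefficient of variation was 0.0947. SE is the size of the log2 fold change over the square root of F. List scores used log2 CPM with a prior count of 2. Pairs of libraries within a group had chi-square values of 3.23 to 12.3 for each degree of freedom, and each library was counted as 1 replicate. The test was checked on simulated counts.

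Members and the 47 lists were chosen with earlier results of these data known. Named genes were the 8 largest rises and 8 largest falls of at least 1 CPM, the 10 smallest adjusted p, called members of lists, the 4 changed genes of smallest p against HFHS untreated hearts and preset genes; others are said to be chosen after their values were seen. Some of the genes chosen by this rule are not reported here. Alternatives were scaling by RLE or upper quartile, no filter or 1 CPM in 4 libraries, DESeq2 1.42.0, limma 3.58.1 (voom with sample weights; the deposited log2 values), a replicate block, 8 libraries only, valve and atrial covariates, and leaving out libraries.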

Additional observations from a re-analysis of the deposited data

Results flagged for a closer look

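In 17 of 298 groups of 4 values (named genes and list scores), 5.7%, the highest or lowest library lay apart from the others by more than 0.829 of the group's range; chance gives about 1 in 20.

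Etfdh in HFHS ertugliflozin replicate 2 was 1297 CPM, against 1257 to 1259.8 in the other libraries of its group. Acaca in HFHS ertugliflozin replicate 1 was 8.26 CPM, against 6.86 to 6.99 in the other libraries of its group. Slc2a1 in HFHS ertugliflozin replicate 3 was 13.6 CPM, against 10.6 to 11 in the other libraries of its group. Tnnc1 in HFHS ertugliflozin replicate 1 was 1968 CPM, against 2202 to 2236 in the other libraries of its group. Slc2a4 in HFHS ertugliflozin replicate 3 was 344 CPM, against 362 to 363 in the other libraries of its group. Ucp3 in HFHS ertugliflozin replicate 3 was 159 CPM, against 115 to 118 in the other libraries of its group. Fabp3-ps1 in HFHS ertugliflozin replicate 1 was 1662 CPM, against 1777 to 1795 in the other libraries of its group. Dysf in HFHS ertugliflozin replicate 4 was 154.6 CPM, against 168 to 170.1 in the other libraries of its group. Vipr2 in HFHS ertugliflozin replicate 3 was 3.07 CPM, against 2.63 to 2.64 in the other libraries of its group.

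Angptl4 in CD untreated replicate 4 was 14.7 CPM, against 5.93 to 6.98 in the other libraries of its group. Slc2a1 in CD untreated replicate 4 was 23.4 CPM, against 16.2 to 16.7 in the other libraries of its group. Psat1 in CD untreated replicate 4 was 3.57 CPM, against 4.42 to 4.57 in the other libraries of its group. Lipe in CD untreated replicate 4 was 69.3 CPM, against 46.7 to 49.2 in the other libraries of its group. Slc5a1 in CD untreated replicate 2 was 0.981 CPM, against 1.51 to 1.61 in the other libraries of its group.

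The score of interferon-inducible GTPases in HFHS ertugliflozin replicate 4 was -0.592 on the log2 scale, against -0.411 to -0.398 in the other libraries of its group. The score of smooth muscle and pericyte markers in CD untreated replicate 1 was -0.455 on the log2 scale, against 0.0974 to 0.162 in the other libraries of its group. The score of mesothelial markers in HFHS ertugliflozin replicate 2 was -0.478 on the log2 scale, against -0.0415 to 0.0108 in the other libraries of its group. 

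The drug difference on the HFHS diet set against the drug difference on CD differed by -1.38 for Tgtp2, -1.13 for Igtp and -1.29 for Iigp1 on the log2 scale (edgeR adjusted p = 0.0219 each), so these 3 genes stood out for unequal differences between the diets.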

How the results depend on the processing

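The count of 427 changed genes (306 higher, 121 lower) was 413 with RLE scaling, 400 with upper-quartile scaling (248 higher, 152 lower), 453 without a filter, 445 with a filter of 1 CPM in 4 libraries and 396 with limma on the deposited log2 values. It was 675 with DESeq2 (451 higher, 224 lower), 1112 with limma-voom and sample weights (688, 424) and 712 with the 8 libraries alone (495, 217). Valve and atrial covariates left 53 (44, 9), and dropping CD untreated replicates 2 and 3 together left 102 (67, 35). Leaving out 1 library gave 216 to 463 genes, 163 to 316 higher and 53 to 147 lower. The cause was not tested. The comparison with HFHS untreated hearts gave 0 genes under every alternative run, but was not run in the fits of 8 libraries.

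Deviations of same-numbered libraries correlated at 0.0295 to 0.128 over 4 pairs. Libraries of different numbers were not set beside them, so whether replicate numbers pair the libraries was not tested. With the replicate number as a block, 436 genes passed with 16 libraries and 877 with 8 (593 higher, 284 lower).

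The difference in library distance was 6.94 with a prior count of 0.5, 3.36 on the deposited log2 values and 5.48 over the 500 most variable genes (exact permutation p = 0.0286 each). Without 1 library it was 5.26 to 9.54, with an exact permutation p of 0.0286 to 0.0571.

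Of 91 named genes that passed, 28 kept direction and call under all 20 alternatives, and 1, Cilp2, reversed, to 0.24 with the covariates. The valve score among those covariates includes Cilp2 itself. Of 11 that did not pass, 4 passed under an alternative. With n = 4, the median SE among changed genes was 0.071, and the smallest difference called was 0.165 log2 units. In the simulated counts the test recovered 22.7% of genes with a true log2 fold change of 0.322. It recovered 56.7% at 0.585 and 89.6% at 1. A gene that did not pass may therefore still differ by such sizes.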
